A study of Mus musculus with 8 samples.

Results

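Vegfa, Flt1, Met, Thbs1, Nrp1 and Nrp2 are angiogenic factors and receptors that myeloid cells of tumours carry. They were taken by gene symbol from the 27405 genes listed in the deposited matrices, and all 6 were found. Their mRNA was followed across the leukocyte types and macrophage states of MC38 tumours, a mouse colon carcinoma line grown in wild-type mice, from which CD45+ cells had been sorted and sequenced one by one. One group had received LNP-Sirpa, a treatment aimed at SIRPα, the inhibitory receptor of myeloid cells that binds CD47 (2 libraries). The controls, labelled CTRL (2 libraries), came from the same tumour line, genotype, sort and batch, and the labels do not say what they received. The labels do not give the dose, the time or the age of the mice either, nor whether the replicates are separate animals. The p-values therefore measure the spread between these libraries, which may be technical.

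VEGF-A is the main growth signal for blood vessels. It binds VEGFR1, the product of Flt1, which takes it up with high affinity and signals weakly, and VEGFR2, the product of Kdr. Neuropilins 1 and 2 are coreceptors that pass VEGF and class 3 semaphorins to their signalling partners. MET is the receptor of hepatocyte growth factor and drives cell movement and survival. Thrombospondin-1, the product of Thbs1, is a matrix glycoprotein that slows vessel growth through CD36 and also binds CD47. In tumours, macrophages are a known source of VEGF-A, and monocytes and macrophages carry VEGFR1 and neuropilin-1.

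The 4 libraries held 10332 and 9005 cells after filtering in LNP-Sirpa tumours and 7504 and 10876 in CTRL tumours, with 68643358 to 90770447 UMIs (unique molecular identifiers, 1 per captured RNA molecule) per library. Cells were assigned to cell types by UMIs of marker genes, none of which is one of the 6 genes. The monocyte/macrophage gate held 3638 and 4717 cells in LNP-Sirpa and 4535 and 6410 in CTRL libraries. It carried all 10 of its markers in every library, the summed level being 13373 and 12127 raw CPM (counts-per-million without normalization between libraries) in LNP-Sirpa and 15391 and 17283 in CTRL libraries. Of these markers 7 set the gate, so their presence is no check of it. Cells in no gate made up 49.8% and 38.3% of LNP-Sirpa cells and 31.4% and 33.0% of CTRL cells. Cell names are running numbers within a library, so the 830 to 1242 names shared by a pair of libraries do not show shared cells. Sirpa itself had 460 and 391 CPM (from here on scaled by the TMM factors of edgeR) in the LNP-Sirpa monocyte/macrophage gate, against 513 and 533 CPM in CTRL (log2 ratio −0.30 ± 0.19 (SE), adjusted p = 0.419 by edgeR's quasi-likelihood test).

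RefSeq (build GRCm38.p6) gave promoter sequences for 5 of the 6 genes. The 250 bases before the start of transcription of the pair of genes that rose in LNP-Sirpa macrophages are shown 5′ to 3′ on the strand of the gene, with capitals for matches to AP-1 (TGANTCA), CRE (TGACGTCA) and the hypoxia response core (ACGTG).
Flt1, chr5:147726012-147726261, minus strand: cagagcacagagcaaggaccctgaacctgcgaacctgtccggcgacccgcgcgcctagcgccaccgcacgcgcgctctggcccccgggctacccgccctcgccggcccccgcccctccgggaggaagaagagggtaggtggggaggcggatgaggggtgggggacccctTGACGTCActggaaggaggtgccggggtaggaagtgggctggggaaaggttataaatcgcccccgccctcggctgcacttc
Met, chr6:17463707-17463956, plus strand: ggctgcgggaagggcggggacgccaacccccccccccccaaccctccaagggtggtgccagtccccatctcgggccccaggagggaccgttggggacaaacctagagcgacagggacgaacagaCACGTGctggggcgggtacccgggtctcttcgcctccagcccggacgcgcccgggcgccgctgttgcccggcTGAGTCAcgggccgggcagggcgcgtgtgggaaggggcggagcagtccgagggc
The Flt1 window held 1 CRE match, beginning 81 bases upstream, a letter string found in 1.55% of the 32851 promoters searched on both strands. The Met window held 1 AP-1 match 54 bases upstream (6.75% of promoters). It also held the hypoxia core on both strands, at 126 and 125 bases upstream within the palindrome CACGTG (16.6% of promoters hold the core). Each of them also had 3 GC boxes (GGGCGG, 32.7% of promoters), which are left in lower case. Neither held the interferon motifs searched, ISRE (2.98% of promoters) and GAS (TTCNNNGAA, 7.02%). Of the other windows, the first of Vegfa's (chr17:46032378-46032627, minus strand) had an ISRE match at 142 bases upstream. Its second (chr17:46025164-46025413) had a hypoxia core at 211 bases upstream. That second window belongs to another listed start, downstream of the first. Nrp1 and Nrp2 matched only the GC box, 1 time and 5 times. A match is a string of letters, and no binding was measured here.

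In the monocyte/macrophage gate, Flt1 and Met rose in LNP-Sirpa tumours and the other 4 genes did not pass the test. For every gate, UMIs were summed over its cells within a library and the libraries were compared with edgeR's quasi-likelihood test, with Benjamini-Hochberg adjustment over all genes and a threshold of 0.05. In this gate 3.16% of 15594 genes passed, 2.22% higher and 0.936% lower, and the median log2 ratio of all genes was −0.01. A sum over a gate cannot tell more cells with a transcript from more transcript per cell, so shares of cells follow the levels.

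The ligand Vegfa had 47.2 and 72.3 CPM in LNP-Sirpa macrophages, against 17.2 and 28.1 CPM in CTRL macrophages. Both LNP-Sirpa libraries lay above both CTRL libraries, and the LNP-Sirpa libraries also stood apart from each other. The means were 59.8 ± 17.8 and 22.6 ± 7.66 CPM (SD, n = 2 each), a log2 ratio of 1.40 ± 0.30 (SE) with an adjusted p of 0.0694 by edgeR's quasi-likelihood test. The call depended on the model, since DESeq2 gave an adjusted p of 0.000213 and edgeR without the LNP-Sirpa replicate 1 library gave 0.0430 (log2 ratio 1.68).

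Its receptor Flt1 had 23.0 and 31.3 CPM in LNP-Sirpa macrophages, against 1.80 and 3.19 CPM in CTRL macrophages. These levels rested on 704 and 1173 UMIs in LNP-Sirpa and 82 and 173 UMIs in CTRL libraries. The groups were far apart, with means of 27.1 ± 5.83 and 2.49 ± 0.980 CPM (SD, n = 2 each). The log2 ratio was 3.44 ± 0.32 (SE; adjusted p = 0.0131, edgeR), and it ran from 3.09 to 3.92 with the call kept when each library was left out in turn.

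Met, which encodes the receptor of hepatocyte growth factor, had 22.4 and 22.8 CPM in LNP-Sirpa macrophages and 3.58 and 3.06 CPM in CTRL macrophages (686 and 855 UMIs against 163 and 166). Replicates lay close together in both groups, and the groups did not overlap. The log2 ratio was 2.77 ± 0.17 (SE; adjusted p = 0.00563, edgeR), and it ran from 2.67 to 2.88 when each library was left out in turn, the call holding each time.

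Thbs1, the anti-angiogenic member, had 291 and 173 CPM in LNP-Sirpa macrophages and 83.8 and 149 CPM in CTRL macrophages. The LNP-Sirpa libraries were the higher ones, with LNP-Sirpa replicate 2 close to CTRL replicate 2. The log2 ratio of 1.00 ± 0.36 (SE) had an adjusted p of 0.194 by edgeR. DESeq2 passed it, with an adjusted p of 0.0303.

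The coreceptor Nrp1 had 125 and 88.8 CPM in LNP-Sirpa macrophages against 167 and 166 CPM in CTRL macrophages (log2 ratio −0.64 ± 0.20, SE; adjusted p = 0.135, edgeR). Both LNP-Sirpa libraries lay below the CTRL libraries, which hardly differed from each other. Without the LNP-Sirpa replicate 1 library the log2 ratio was −0.90 with an adjusted p of 0.0341. Nrp2, the other neuropilin, had 84.3 and 79.4 CPM in LNP-Sirpa and 79.3 and 69.2 CPM in CTRL macrophages (log2 ratio 0.14 ± 0.15, SE; adjusted p = 0.656, edgeR). Its lower LNP-Sirpa library and higher CTRL library were nearly equal.

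**Figure D1:**
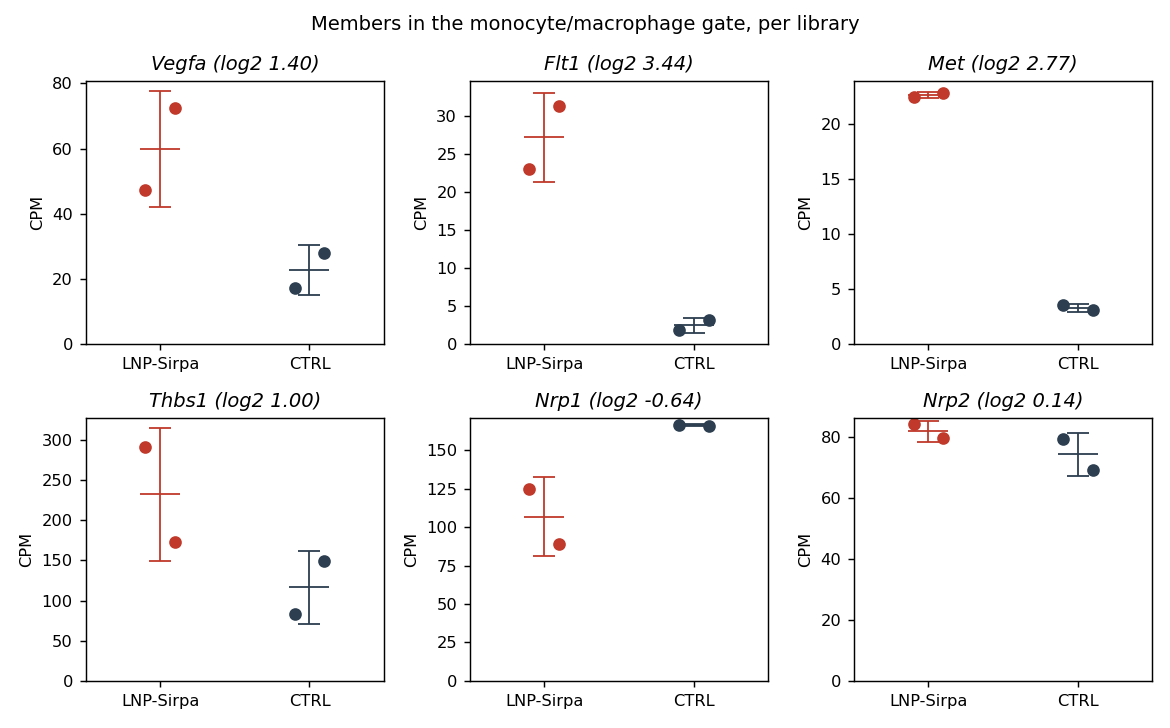
Level in CPM of the 6 genes in the monocyte/macrophage gate, 1 dot per library, LNP-Sirpa left of CTRL, with bars for the mean and SD (n = 2 each) and the log2 ratio in each title. Flt1 (23.0 and 31.3 against 1.80 and 3.19) and Met (22.4 and 22.8 against 3.58 and 3.06) lie far apart between the groups, Nrp1 is the one gene lower in both LNP-Sirpa libraries, and Nrp2 hardly differs.

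Marker RNA of other cell types in this gate was measured because Flt1 is also an endothelial gene and Thbs1 a neutrophil one. The 6 endothelial markers summed to 32.0 and 23.3 raw CPM in LNP-Sirpa and to 16.7 and 21.1 in CTRL macrophages, and Cldn5 was at 0 in 3 of the 4 libraries. Only 3 cells of this gate carried several endothelial markers, with 6 of its Flt1 UMIs, so leaving them out could hardly move the Flt1 ratio (3.43, adjusted p = 0.0141, edgeR). The part of endothelial RNA in the Flt1 values was not tested further. The 8 neutrophil markers summed to 218 and 142 raw CPM in LNP-Sirpa and to 58.1 and 65.5 in CTRL macrophages. The part of neutrophil RNA in the Thbs1 values was not tested. Fibroblast markers summed to 27.0 and 12.03 raw CPM in LNP-Sirpa and to 36.1 and 31.0 in CTRL macrophages.

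Over all kept cells of a library, whatever their gate, Flt1 had 15.3 and 24.2 raw CPM in LNP-Sirpa and 4.06 and 3.36 in CTRL tumours. Met had 17.1 and 21.6 in LNP-Sirpa and 4.76 and 3.69 in CTRL tumours. The direction was that of the gate, but neither passed the test there (log2 ratios 2.54 and 2.31, adjusted p = 0.0923 and 0.0828, edgeR), in a comparison that called 2 genes in all. For Flt1 a handful of cells matters here: 8 of the 37717 kept cells carried endothelial markers, 1 in each LNP-Sirpa library and 3 in each CTRL library. The 5 of them outside all gates, all CTRL, held Flt1 at 1871 raw CPM (95% exact Poisson interval 1596 to 2179). In CTRL replicate 1 the 3 endothelial-marker cells carried 128 of the library's 279 Flt1 UMIs.

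More macrophages of LNP-Sirpa tumours carried a Flt1 or Met UMI. A Flt1 UMI was seen in 10.4% and 14.7% of LNP-Sirpa macrophages and in 1.35% and 1.75% of CTRL macrophages, at median depths of 7098.5 and 7998 UMIs per cell in LNP-Sirpa and 7844 and 7166 in CTRL. With each cell thinned to 2000 UMIs, the shares were 3.80% (95% Wilson interval 3.20 to 4.503) and 4.75% (4.16 to 5.42) in LNP-Sirpa, against 0.508% (0.332 to 0.775) and 0.461% (0.317 to 0.670) in CTRL. The intervals cover counting error only, and they do not meet between the groups. Thinning left out 320 and 275 shallower cells in LNP-Sirpa and 400 and 553 in CTRL libraries.

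Met followed the same order. A Met UMI was seen in 9.79% and 10.49% of LNP-Sirpa and 2.54% and 1.61% of CTRL macrophages, or 4.19% and 3.65% against 0.605% and 0.581% after thinning. CD8 T cells were set beside the macrophages as cells that should lack both receptors, here without thinning. They had a Flt1 UMI in 1.90% and 2.45% of LNP-Sirpa cells and 0% and 0.313% of CTRL cells, and a Met UMI in 1.69% and 2.45% of LNP-Sirpa cells and in no CTRL cell. Their median depths were 6216 and 5182.5 UMIs in LNP-Sirpa and 5884 and 6182 in CTRL libraries. The unthinned macrophage shares of LNP-Sirpa tumours were higher than those CD8 T shares, in deeper cells. The part of free RNA in the macrophage shares was not tested.

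**Figure D2:**
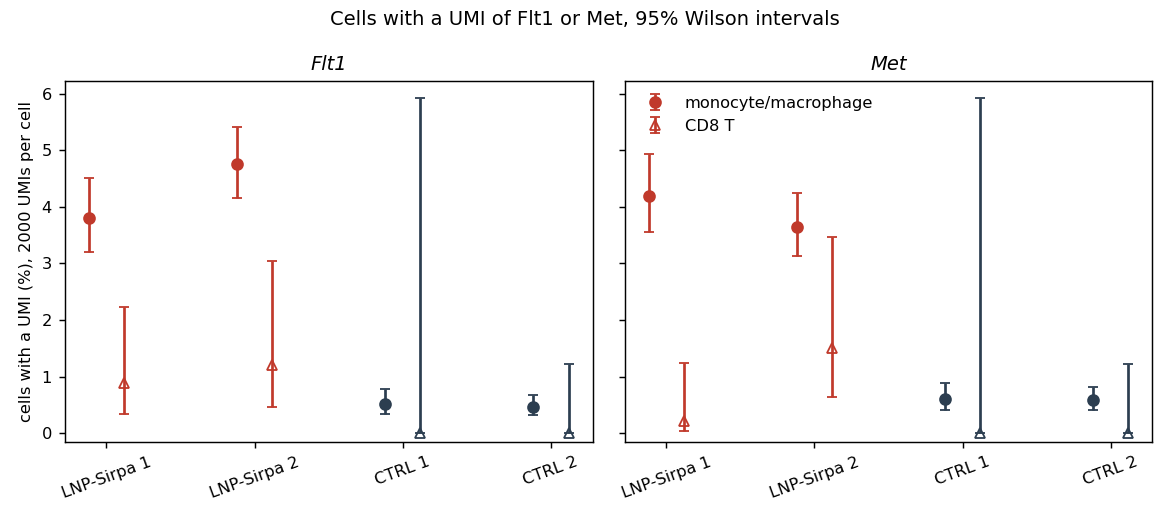
Share of cells with a UMI of Flt1 or Met after thinning each cell to 2000 UMIs, in percent, for the monocyte/macrophage gate and the CD8 T gate, 1 point per library with its 95% Wilson interval, LNP-Sirpa left of CTRL. The LNP-Sirpa macrophages sit between 3.65% and 4.75%, the CTRL macrophages between 0.461% and 0.605%.

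The other 4 genes were seen in more cells. After thinning, Vegfa was found in 9.43% and 12.4% of LNP-Sirpa and 3.60% and 5.38% of CTRL macrophages, and Thbs1 in 25.5% and 20.2% of LNP-Sirpa and 12.5% and 19.9% of CTRL macrophages. Nrp1 was found in 21.9% and 13.3% of LNP-Sirpa and 28.9% and 27.5% of CTRL macrophages, and Nrp2 in 14.9% and 12.5% of LNP-Sirpa and 15.4% and 13.2% of CTRL macrophages. The Vegfa, Nrp1 and Thbs1 shares did not overlap between the groups, those of Thbs1 by a narrow margin (20.2% against 19.9%). The Nrp2 shares overlapped. How many of all genes part in this way was not counted. With 2 libraries a group these shares are a description only.

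Within a library, Vegfa and Thbs1 were often seen in the same cells. In cells thinned to 2000 UMIs, a Thbs1 UMI was seen in 50.8% and 31.4% of Vegfa-positive LNP-Sirpa macrophages, against 22.9% and 18.7% of the Vegfa-negative ones. In CTRL macrophages it was seen in 28.2% and 38.1% of Vegfa-positive and 11.9% and 18.9% of Vegfa-negative cells. The higher share lay with the Vegfa-positive cells in each of the 4 libraries. Met behaved in the same way with Thbs1, which was seen in 53.2% and 34.0% of Met-positive LNP-Sirpa macrophages, against 24.3% and 19.7% of the Met-negative ones. For CTRL macrophages these shares were 28.0% and 55.9% of Met-positive against 12.4% and 19.7% of Met-negative cells. The CTRL Met-positive cells numbered only 25 and 34 (95% Wilson intervals of their shares 14.3% to 47.6% and 39.5% to 71.1%). Flt1 and Met, both seen in few cells at this depth, shared 10 and 8 cells in LNP-Sirpa and 0 and 1 in CTRL libraries. A Met UMI was seen in 7.94% and 3.79% of Flt1-positive LNP-Sirpa macrophages, against 4.04% and 3.64% of the Flt1-negative ones. For CTRL macrophages these shares were 0% and 3.70% against 0.608% and 0.566%. The shares of the neuropilins differed less than those of Vegfa with Thbs1. Nrp2 was seen in 17.5% and 17.9% of Nrp1-positive LNP-Sirpa cells against 14.2% and 11.6% of Nrp1-negative ones, with 18.1% and 16.4% against 14.3% and 12.01% in CTRL. These are descriptions of cells within a library and carry no test.

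The macrophage states held the 6 genes at different levels. Cells of the gate were given a state by marker UMIs (monocyte, resident-like, interferon-high, inflammatory, lipid-associated or cycling), and each state was set against the cells with no state in one edgeR fit of 11102 genes with the library as a block. Inflammatory cells, marked by Inhba, Cxcl3, Il1a, Cxcl1 and Slc7a11, carried more Vegfa, Met, Thbs1 and Nrp2 and less Nrp1. Monocyte-state cells, marked by Ly6c2, Plac8, Vcan and Chil3, carried more Met and Thbs1 and less of both neuropilins. Resident-like cells, marked by Folr2, Cbr2, Fcrls, Lyve1 and Pf4, showed the reverse of the inflammatory cells for Met, Thbs1 and Nrp1. The shares of all genes that passed were 20.1% for inflammatory, 11.8% for monocyte, 19.4% for resident-like, 4.67% for interferon-high, 8.22% for lipid-associated and 24.8% for cycling cells, so several of these contrasts call a large part of the transcriptome.

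Met was the gene that differed most by state. It averaged 59.0 ± 33.6 CPM in inflammatory cells and 44.6 ± 13.9 CPM in monocyte-state cells, against 7.72 ± 5.83 CPM in cells with no state (SD, n = 4 libraries). The log2 ratios were 2.95 ± 0.30 for inflammatory (SE; adjusted p = 7.01e-07, edgeR) and 2.45 ± 0.33 for monocyte-state cells (adjusted p = 6.55e-05). In resident-like cells Met averaged 1.21 CPM (log2 ratio −1.96 ± 0.67, adjusted p = 0.0467, edgeR), a call that was lost without CTRL replicate 1, without CTRL replicate 2 or without LNP-Sirpa replicate 1 (adjusted p 0.181, 0.129 and 0.114).

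Thbs1 averaged 514 CPM in inflammatory and 420 CPM in monocyte-state cells, against 155 CPM in cells with no state (log2 ratios 1.60 ± 0.23 and 1.41 ± 0.23, SE; adjusted p = 4.65e-05 and 0.000472, edgeR). It was lower in resident-like cells (59.7 CPM, log2 ratio −1.30 ± 0.26, adjusted p = 0.00117) and in cycling cells (71.9 CPM, log2 ratio −1.11 ± 0.23, adjusted p = 0.00118). Vegfa averaged 88.4 CPM in inflammatory cells against 40.0 CPM in cells with no state (log2 ratio 1.15 ± 0.25, SE; adjusted p = 0.00216, edgeR). Cycling cells had less of it, at 22.7 CPM (log2 ratio −0.93 ± 0.25, adjusted p = 0.00812), a call lost without CTRL replicate 2 (adjusted p = 0.0885).

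The neuropilins parted by state. Nrp1 averaged 230 CPM in resident-like cells, against 128 CPM in cells with no state (log2 ratio 0.87 ± 0.11, SE; adjusted p = 9.89e-07, edgeR). It was lower in inflammatory cells (81.8 CPM, log2 ratio −0.57 ± 0.12, adjusted p = 0.000498) and in monocyte-state cells (89.5 CPM, −0.54 ± 0.12, adjusted p = 0.00279), the last lost without LNP-Sirpa replicate 1 (adjusted p = 0.0771). Nrp2 averaged 104 CPM in inflammatory and 102 CPM in resident-like cells, against 71.2 CPM in cells with no state (log2 ratios 0.53 ± 0.10 and 0.45 ± 0.11; adjusted p = 0.000262 and 0.00221, edgeR). In cells thinned to 2000 UMIs neither of these Nrp2 calls was kept (adjusted p 0.106 and 0.115). Monocyte-state cells had the lowest Nrp2 level, 43.6 CPM (log2 ratio −0.67 ± 0.12, adjusted p = 0.000214, edgeR). Nrp2 also passed in interferon-high and lipid-associated cells (log2 ratios 0.44 and 0.38, adjusted p = 0.00954 and 0.0323, edgeR). The first was lost without CTRL replicate 2 (adjusted p = 0.235) and the second without any 1 of 3 libraries, LNP-Sirpa replicate 1, LNP-Sirpa replicate 2 or CTRL replicate 2 (adjusted p 0.191, 0.0871 and 0.276). Flt1 passed in no state, its means running between 3.25 CPM in resident-like and 23.1 CPM in interferon-high cells.

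**Figure D3:**
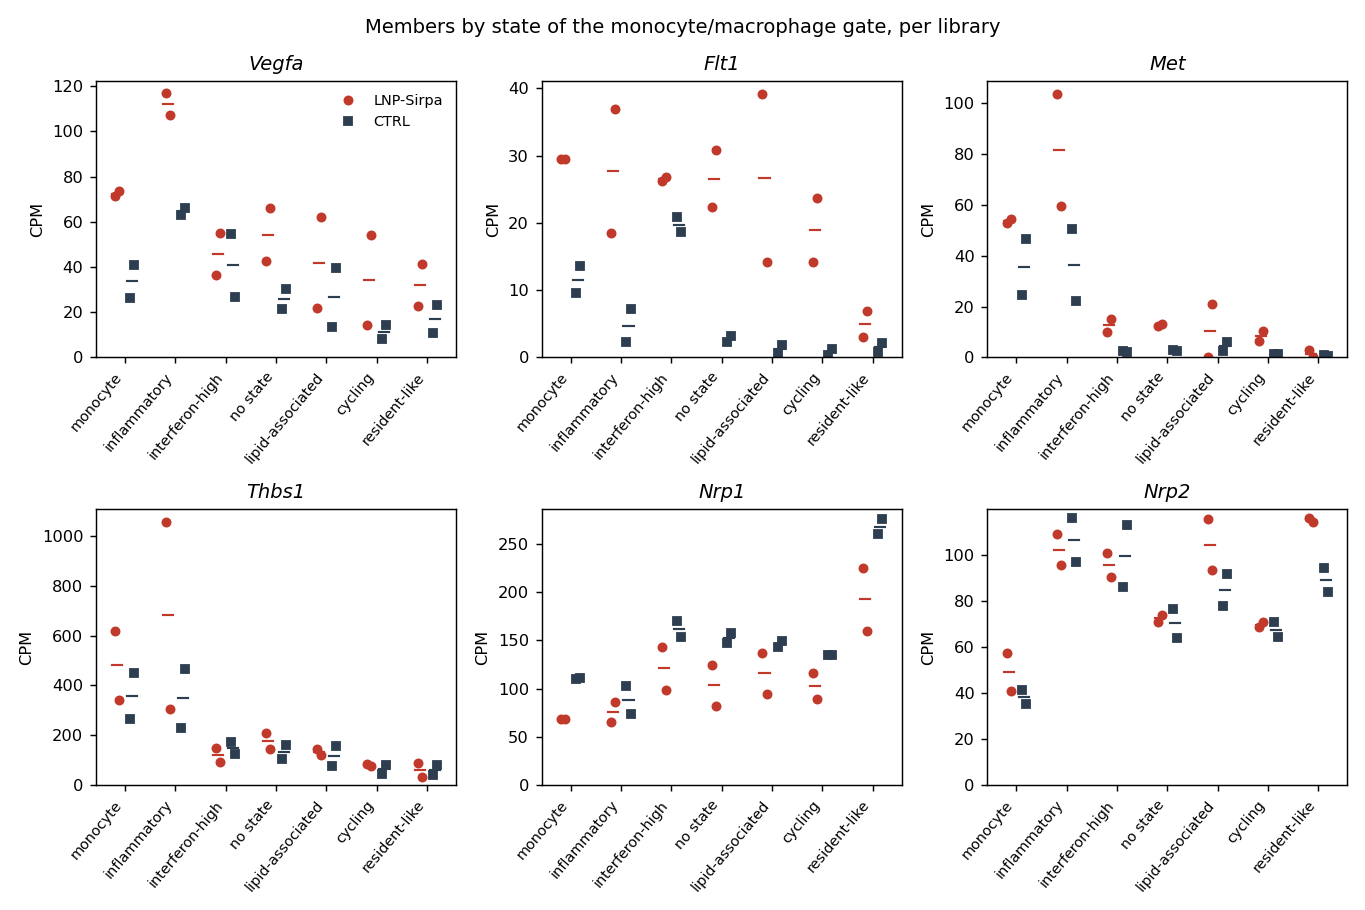
Level in CPM of the 6 genes by macrophage state, 1 panel per gene, 1 dot per library (LNP-Sirpa red, CTRL dark squares) with a line at each group's mean. Met and Thbs1 are high in inflammatory and monocyte-state cells in all 4 libraries, Nrp1 is high in resident-like cells, and Flt1 separates the groups in most states.

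The makeup of the gate by state differed between the groups, and those shares stand beside the levels above. Resident-like cells were 2.86% and 0.678% of the LNP-Sirpa gate and 20.9% and 11.4% of the CTRL gate. Inflammatory cells were 8.33% and 12.1% of the LNP-Sirpa gate and 1.70% and 1.92% of the CTRL gate. Monocyte-state cells were 9.51% and 7.50% in LNP-Sirpa and 1.79% and 0.858% in CTRL, and interferon-high cells 23.6% and 7.25% in LNP-Sirpa and 0.794% and 1.498% in CTRL. The states with the most Met and Thbs1 were thus the larger in LNP-Sirpa libraries, and the state with the most Nrp1 the smaller.

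Flt1 and Met also rose within the cells that carried no state. In these cells (0.88% of 14202 genes called) Flt1 had 22.8 and 32.4 CPM in LNP-Sirpa against 2.25 and 3.33 CPM in CTRL libraries (log2 ratio 3.29 ± 0.27, SE; adjusted p = 0.0107, edgeR). Met had 12.6 and 13.8 CPM in LNP-Sirpa and 3.02 and 2.44 CPM in CTRL libraries (2.29 ± 0.21, adjusted p = 0.0107). No other member passed there. Thbs1 had 215 and 152 CPM in LNP-Sirpa and 106 and 165 CPM in CTRL cells with no state (0.44 ± 0.27, adjusted p = 0.510, edgeR), and those groups overlapped.

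Flt1 also passed in 3 of the states, on few CTRL molecules. In cycling cells it had 15.6 and 26.1 CPM in LNP-Sirpa against 0.421 and 1.33 CPM in CTRL libraries (log2 ratio 4.57 ± 0.50, adjusted p = 0.0393, edgeR, 0.419% of genes called). In inflammatory cells it had 17.7 and 35.2 CPM in LNP-Sirpa against 2.17 and 6.98 CPM in CTRL libraries (2.45 ± 0.53, adjusted p = 0.0445, 1.87% called), with 2 and 9 CTRL UMIs. Both calls were lost without CTRL replicate 1 (adjusted p 0.119 and 0.0677). In lipid-associated cells it had 37.9 and 13.5 CPM in LNP-Sirpa against 0.639 and 1.78 CPM in CTRL libraries, with 1 and 4 CTRL UMIs (4.09 ± 0.72, adjusted p = 0.0259, edgeR, 0.462% called). That call was lost without LNP-Sirpa replicate 1 (adjusted p = 0.314).

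In monocyte-state cells Flt1 had 29.1 and 28.8 CPM in LNP-Sirpa and 9.34 and 13.4 CPM in CTRL libraries (log2 ratio 1.40 ± 0.38, adjusted p = 0.0743, edgeR, 2.28% of genes called). The CTRL levels of this state rested on 9 and 7 UMIs and lay above the 2.25 and 3.33 CPM of CTRL cells with no state. Resident-like cells held little Flt1 in either group, 3.17 and 7.12 CPM in LNP-Sirpa and 0.883 and 2.19 CPM in CTRL libraries (1.51 ± 0.94, adjusted p = 0.575, edgeR, 1.89% called), on at most 13 UMIs a library. Interferon-high cells also carried it in both groups, with 25.6 and 26.4 CPM in LNP-Sirpa against 20.8 and 18.2 CPM in CTRL libraries (0.44 ± 0.35, adjusted p = 0.813, edgeR, 0.41% of genes called). The test of the difference itself gave −2.65 ± 0.53 on the log2 scale for interferon-high minus no state (adjusted p = 0.00485, edgeR, 0.973% of 11102 genes called). Kdr had 15.7 and 4.64 CPM in CTRL interferon-high cells, against 1.03 and 1.11 CPM in CTRL cells with no state. In LNP-Sirpa libraries Kdr had 5.04 and 1.7 CPM in interferon-high cells and 2.30 and 1.01 CPM in cells with no state. The part of endothelial RNA in these Flt1 values was not tested. The CTRL side of the interferon-high contrast held 36 and 96 interferon-high cells with 8 and 16 Flt1 UMIs, found in 4 cells of each library. Without CTRL replicate 1 or CTRL replicate 2 it no longer passed (adjusted p 0.369 and 0.234).

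In the 2 states with the most Met, its treatment difference did not pass. In inflammatory cells it had 99.4 and 56.9 CPM in LNP-Sirpa and 48.8 and 21.7 CPM in CTRL libraries (log2 ratio 1.18 ± 0.41, adjusted p = 0.208, edgeR). In monocyte-state cells it had 52.1 and 53.1 CPM in LNP-Sirpa and 23.9 and 46.0 CPM in CTRL libraries (0.67 ± 0.31, adjusted p = 0.385, edgeR). The LNP-Sirpa libraries were the higher ones in both states. The difference of these ratios from that of cells with no state did not pass (−1.07 for inflammatory and −1.51 for monocyte-state cells, adjusted p 0.447 and 0.872, edgeR), in tests that called 0.117% and 0.00901% of genes. Vegfa came nearest to the threshold in monocyte-state cells, at 70.2 and 72.0 CPM in LNP-Sirpa and 25.9 and 40.2 CPM in CTRL libraries (1.16 ± 0.29, adjusted p = 0.0502, edgeR).

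Across cell types, Thbs1 was highest in neutrophils, Nrp2 in fibroblast-like cells and Nrp1 in macrophages. Levels were compared over 7 gates in one edgeR fit of 10479 genes with the library as a block, LNP-Sirpa and CTRL libraries together, and the CPM of this fit differ slightly from those of the single gate. In neutrophils Thbs1 had 1310 and 1121 CPM in LNP-Sirpa and 745 and 412 CPM in CTRL libraries. Macrophages came next, with 285 and 165 CPM in LNP-Sirpa and 85.1 and 152 CPM in CTRL libraries, and their range did not meet that of the neutrophils. The log2 ratio of neutrophils over macrophages was 2.51 ± 0.31 (SE; adjusted p = 2.03e-06, edgeR), in a contrast that called 27% of genes.

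Macrophages in turn exceeded fibroblast-like cells (49.7 CPM on average) by a log2 ratio of 1.68 ± 0.32 (adjusted p = 8.92e-05, edgeR, 64% of genes called). Below them came regulatory T, CD8 T, dendritic and NK cells at 39.9, 33.6, 27.3 and 26.3 CPM, and no neighbours in that order differed. The neutrophil gate of the CTRL libraries held 23 and 22 cells, with 56 and 28 Thbs1 UMIs.

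Nrp2 was highest in fibroblast-like cells, at 148 ± 14.8 CPM over the 4 libraries (SD). Dendritic cells followed with 82.1 CPM (log2 ratio of fibroblast-like over dendritic cells 1.02 ± 0.17, adjusted p = 2.04e-06, edgeR, 58.1% of genes called), then macrophages with 77.4 CPM and neutrophils with 54.7 CPM. The fibroblast-like lead over dendritic cells was lost under a stricter gate (log2 ratio 0.25, adjusted p = 0.182). Between neutrophils and CD8 T cells, at 11.4 CPM, lay a step of 2.14 ± 0.29 on the log2 scale (adjusted p = 8.08e-08, edgeR, 44.4% called). Regulatory T and NK cells were lower still, at 11.0 and 9.74 CPM. Nrp2 in lymphoid gates was 7.08% to 23.9% of its macrophage level in the same library. The C1q genes, which macrophages make and which no gate used, stood there at 5.98% to 14.98% of theirs. The part of free RNA in the lymphoid Nrp2 was not tested. In neutrophils Nrp2 stood at 51.1% to 113% of its macrophage level and the C1q genes at 29.3% to 37.0% of theirs. The part of macrophage RNA in the neutrophil Nrp2 was not tested.

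Nrp1 did not share that pattern, and its level in CD8 T cells was closer to that of macrophages. It averaged 136 CPM in macrophages and 87.1 CPM in CD8 T cells (log2 ratio 0.67 ± 0.19, SE; adjusted p = 0.00251, edgeR, 56.3% of genes called). The CD8 T level was 54.2% to 70.1% of the macrophage level, against 10.1% to 14.98% for the C1q genes in the same gate. The part of free RNA in that level was not tested either. Neutrophils, dendritic cells and regulatory T cells had 49.2, 45.3 and 44.2 CPM without a difference between neighbours. Fibroblast-like and NK cells had 22.7 and 21.9 CPM. In neutrophils Nrp1 stood at 32.9% and 41.5% of its macrophage level in LNP-Sirpa and 10.1% and 71.0% in CTRL libraries. The C1q genes stood in neutrophils at 31.0% and 35.6% in LNP-Sirpa and 29.3% and 37.0% in CTRL libraries. The part of macrophage RNA in the neutrophil Nrp1 was not tested. The step from regulatory T to fibroblast-like cells was 0.96 ± 0.29 on the log2 scale (adjusted p = 0.00460, edgeR, 53.9% called) and was lost without LNP-Sirpa replicate 2 (adjusted p = 0.0570). Smaller gates held Nrp1 too, at 109 raw CPM in the 203 other CD4 T cells (95% exact Poisson interval 90.4 to 131) and 96.4 in the 222 mast cells or basophils (82.2 to 112).

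Vegfa, Flt1 and Met had fewer steps between neighbouring cell types. Vegfa ran over neutrophils (62.4 CPM), macrophages (40.4), fibroblast-like (35.5), NK (29.1), dendritic (21.8), regulatory T (10.7) and CD8 T cells (10.6), and no neighbours in that order differed. The order of macrophages and fibroblast-like cells turned between the groups. In CTRL libraries macrophages had 17.5 and 28.7 CPM of Vegfa, below fibroblast-like cells at 38.8 and 42.2 and neutrophils at 39.9 and 88.4. In LNP-Sirpa libraries Vegfa had 46.3 and 69.0 CPM in macrophages, above fibroblast-like cells at 29.0 and 31.8. Neutrophils had 62.3 and 59.2 CPM there, above macrophages in LNP-Sirpa replicate 1 and below them in LNP-Sirpa replicate 2. The Vegfa response of neutrophils minus that of macrophages did not pass (−1.42 ± 0.73, adjusted p = 0.428, edgeR's interaction test). Fibroblast-like cells were not in that test. Against macrophages Vegfa was lower in CD8 T (log2 ratio −1.76 ± 0.32, adjusted p = 3.09e-05, edgeR), regulatory T (−1.84 ± 0.47, adjusted p = 0.00193, 44.4% of genes called) and dendritic cells (−1.50 ± 0.41, adjusted p = 0.00423, 37.7% called). The dendritic call was lost under a stricter gate (adjusted p = 0.0707). Flt1 had its highest mean in macrophages, with 22.6 and 29.8 CPM in LNP-Sirpa and 1.83 and 3.26 CPM in CTRL libraries. Fibroblast-like cells had 4.84 and 14.3 CPM in LNP-Sirpa and 2.16 and 11.5 CPM in CTRL libraries, more than the macrophages of both CTRL libraries. Neither fibroblast-like cells nor neutrophils differed from macrophages over the 4 libraries (log2 ratios −0.35 and −0.64, adjusted p = 0.483 and 0.556, edgeR). Its mean in neutrophils, 8.56 CPM, came wholly from 11 UMIs of LNP-Sirpa replicate 2. The part of macrophage RNA in those UMIs was not tested. Fibroblast-like cells averaged 8.20 CPM and exceeded CD8 T cells at 3.21 CPM (log2 ratio 1.74 ± 0.58, adjusted p = 0.0116, edgeR, 60.7% called), a step that was lost without either CTRL library (adjusted p 0.0804 and 0.240). Dendritic, NK and regulatory T cells held 1.19, 1.04 and 0.794 CPM of Flt1, with at most 4 UMIs in any library. Each lay below macrophages (log2 ratios −2.51 ± 0.79, −3.77 ± 0.85 and −3.95 ± 0.99, adjusted p = 0.0127, 0.000455 and 0.00160, edgeR, with 52.6% of genes called for NK cells). The dendritic call was lost without CTRL replicate 1 (adjusted p = 0.0755) and under the stricter gate (adjusted p = 0.0738).

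Met averaged 19.1 CPM in dendritic cells, 12.6 in macrophages, 12.2 in neutrophils, 6.34 in fibroblast-like, 5.07 in regulatory T, 2.01 in CD8 T and 1.77 CPM in NK cells, and no neighbours differed. The dendritic mean was raised by LNP-Sirpa replicate 2, in which 8 Met UMIs in 25 cells gave 53.7 CPM. Macrophages had more Met than CD8 T cells (log2 ratio of CD8 T over macrophages −2.45 ± 0.48, adjusted p = 6.70e-05, edgeR) and more Flt1 (−2.09 ± 0.47, adjusted p = 0.000411).

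**Figure D4:**
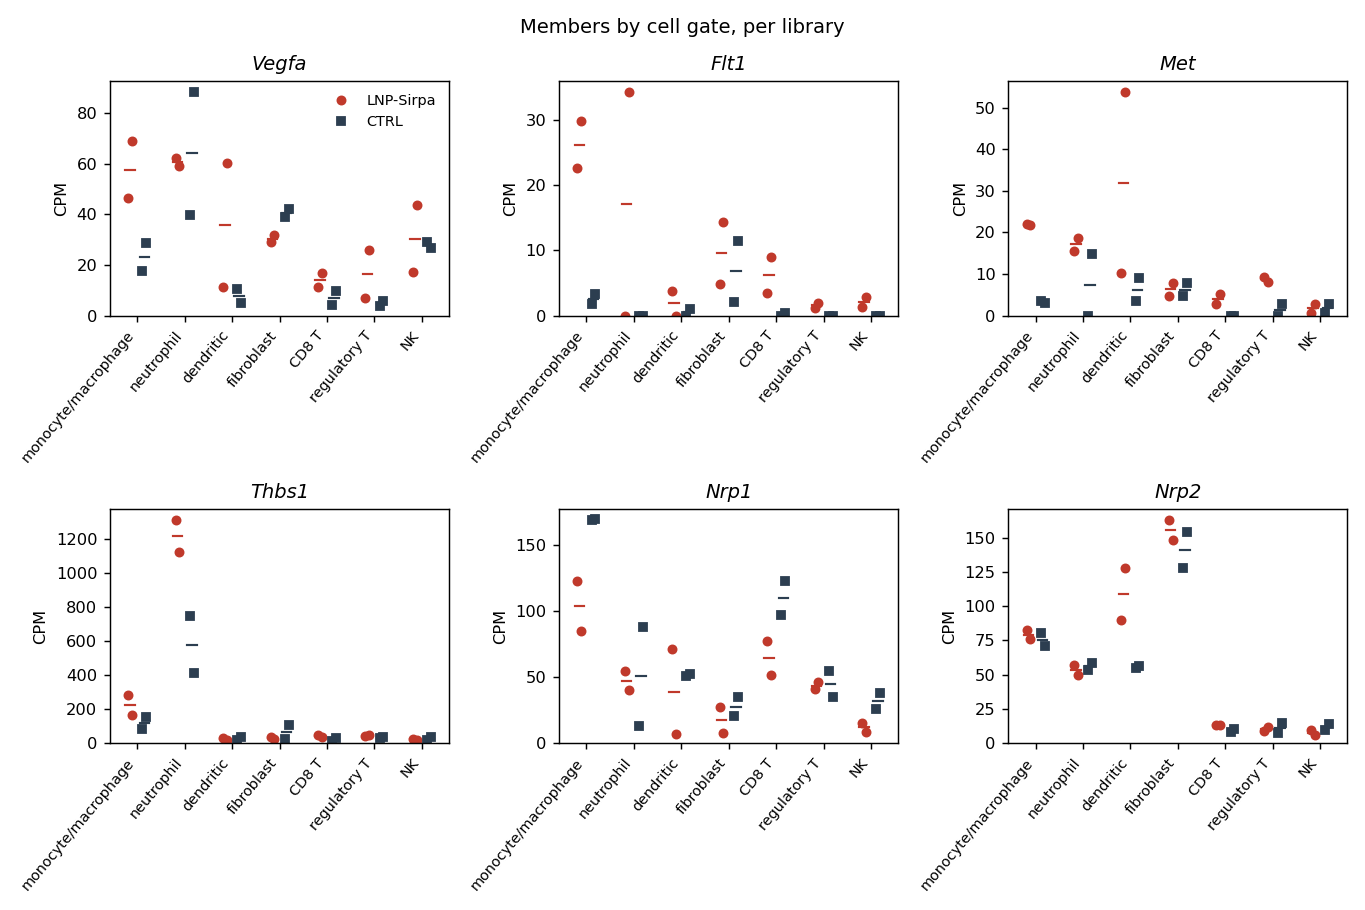
Level in CPM of the 6 genes by gated cell type, 1 panel per gene, 1 dot per library (LNP-Sirpa red, CTRL dark squares) with a line at each group's mean. Thbs1 peaks in neutrophils, Nrp2 in fibroblast-like cells and Nrp1 in macrophages and CD8 T cells, while the Flt1 dots of macrophages split by group.

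Outside the macrophage gate, no member that could be tested passed the treatment test in neutrophils, dendritic cells, CD8 T cells, regulatory T cells or NK cells. With 6 members in all, 3 were tested in neutrophils, 5 in dendritic, 4 in CD8 T, 2 in regulatory T and 4 in NK cells. The share of all genes called there was 0.125%, 0.703%, 0.13%, 0.461% and 0.786%, and unadjusted p-values under 0.05 numbered 371 of 3212 genes in the neutrophil gate and 876 of 7683 in the dendritic gate. Flt1 had too few UMIs to be tested in any of the 5, Met in all but the dendritic gate, Nrp1 in neutrophils, and Vegfa and Nrp2 in regulatory T cells. Of the 2 genes called in macrophages, Met in dendritic cells was thus the one tested here (log2 ratio 1.53 ± 0.81, adjusted p = 0.514, edgeR). Thbs1 in neutrophils had 1235 and 1097 CPM in LNP-Sirpa and 1073 and 580 CPM in CTRL libraries (log2 ratio 0.49 ± 0.40, adjusted p = 0.704, edgeR). Nrp2 in dendritic cells had 87.1 and 126 CPM in LNP-Sirpa and 52.7 and 53.5 CPM in CTRL libraries (0.89 ± 0.31, adjusted p = 0.273, edgeR). With 2 libraries a group, the lack of overlap between these Nrp2 values is no support beside that test.

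Nrp1 was lower in the LNP-Sirpa libraries of the CD8 T and NK gates. In CD8 T cells it had 76.9 and 51.2 CPM in LNP-Sirpa and 96.2 and 120 CPM in CTRL libraries (log2 ratio −0.77 ± 0.24, adjusted p = 0.370, edgeR). In NK cells it had 13.6 and 8.11 CPM in LNP-Sirpa and 23.5 and 33.9 CPM in CTRL libraries (−1.17 ± 0.39, adjusted p = 0.260, edgeR). Those NK levels rested on 24 and 3 UMIs in LNP-Sirpa and 35 and 27 in CTRL libraries. Neither gate passed, and with 2 libraries a group the lack of overlap is no support. NK Nrp1 stood at 11.3% and 9.50% of its macrophage level in LNP-Sirpa and 12.9% and 19.4% in CTRL libraries. The C1q genes stood in NK cells at 5.98% and 8.40% in LNP-Sirpa and 9.95% and 11.7% in CTRL libraries. The part of free RNA in the NK values was not tested. Vegfa in dendritic cells had 10.9 and 59.6 CPM in LNP-Sirpa and 10.1 and 4.78 CPM in CTRL libraries (1.45 ± 0.78, adjusted p = 0.525, edgeR), the high value coming from 9 UMIs.

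Whether a gate differed from macrophages in its response was tested as an interaction in 9302 genes. No member passed in any of the 5 gates, where 1.35%, 0.258%, 1.14%, 0.28% and 0.731% of genes were called in neutrophils, dendritic, CD8 T, regulatory T and NK cells. The smallest adjusted p was that of Vegfa in NK cells (difference of log2 ratios −1.51 ± 0.44, adjusted p = 0.112, edgeR), and Flt1 could not be tested, since the 5 other gates held at most 19 Flt1 UMIs in any library. Of its UMIs 28.7% to 68.8% in a library lay in cells of no gate, 1365 in all.

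Around the 6 genes, 7 lists of pathway genes held 80 genes tested in macrophages, of which 6 passed, or 7.5%, against 3.16% of all genes tested. Without the 6 genes themselves 4 of 74 passed, or 5.41%. The lists were chosen with results known, so nothing particular to them is read from these shares. Of 5 VEGF ligands 4 were tested and none passed (median log2 ratio 0.52), and of 5 VEGF receptors and coreceptors 1 rose, Flt1 (median 0.87). Of 9 tested genes of the HGF and MET list 1 rose, Met (median 0.41). Of 14 tested thrombospondins and receptors 1 fell and none rose (median 0.22), and none of 8 tested class 3 semaphorins and plexins passed (median −0.46). Other angiogenic factors gave 1 rise among 20 tested (median 0.15) and the hypoxia response 2 rises among 20 (median 0.36). The median over all 15594 genes was −0.01.

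The ligands beside Vegfa stayed short of the threshold. Vegfb had 13.2 and 11.1 CPM in LNP-Sirpa and 17.4 and 19.2 CPM in CTRL macrophages (log2 ratio −0.59, adjusted p = 0.0985, edgeR). Pgf, which encodes the placental growth factor that binds VEGFR1, had 6.83 and 6.18 CPM in LNP-Sirpa and 2.13 and 5.01 CPM in CTRL macrophages (0.86, adjusted p = 0.277, edgeR). The second VEGF receptor, Kdr, had 3.14 and 0.933 CPM in LNP-Sirpa and 1.12 and 1.09 CPM in CTRL macrophages (0.87, adjusted p = 0.437, edgeR). Its groups overlapped, unlike those of Flt1. Flt4, the receptor of VEGF-C, stayed under 1 CPM in every library.

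On the MET side, its ligand Hgf had 15.99 and 44.3 CPM in LNP-Sirpa and 15.2 and 22.6 CPM in CTRL macrophages (log2 ratio 0.68, adjusted p = 0.513, edgeR). Gab1, the adaptor that MET recruits, had 62.8 and 93.4 CPM in LNP-Sirpa and 23.5 and 34.9 CPM in CTRL macrophages (1.42 ± 0.27, SE), just over the threshold with an adjusted p of 0.0510 by edgeR. Neither Hgf nor Gab1 passed.

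Among the receptors of thrombospondin-1, Cd36 had 78.5 and 68.9 CPM in LNP-Sirpa and 53.9 and 39.7 CPM in CTRL macrophages (log2 ratio 0.66, adjusted p = 0.109, edgeR). Cd47, which also encodes the ligand of SIRPα, had 347 and 250 CPM in LNP-Sirpa and 151 and 152 CPM in CTRL macrophages (0.98 ± 0.20, SE; adjusted p = 0.0539, edgeR). Both genes were higher in both LNP-Sirpa libraries without passing. The call in this list was Itga6, an integrin chain that pairs with beta chains to bind laminin, which fell to 45.1 and 47.6 CPM in LNP-Sirpa, against 120 and 96.9 CPM in CTRL macrophages (−1.23 ± 0.17, adjusted p = 0.0231, edgeR).

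Of the partners of the neuropilins, Sema3c had 2.35 and 2.16 CPM in LNP-Sirpa and 1.36 and 1.07 CPM in CTRL macrophages (log2 ratio 0.89, adjusted p = 0.139, edgeR), while fibroblast-like cells averaged 70.2 CPM. The plexins that signal with the neuropilins gave log2 ratios of 0.09 for Plxna1 and −0.55 for Plxnd1 (adjusted p = 0.771 and 0.157, edgeR).

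The other calls came from the hypoxia and other angiogenic lists. Hif1a, which encodes the oxygen-regulated subunit of hypoxia-inducible factor, rose to 176 and 149 CPM in LNP-Sirpa, against 53.3 and 63.6 CPM in CTRL macrophages (log2 ratio 1.47 ± 0.18, SE; adjusted p = 0.0202, edgeR). Ddit4, an inhibitor of mTORC1 signalling that stress induces, rose to 20.6 and 23.7 CPM in LNP-Sirpa, against 9.75 and 12.7 CPM in CTRL macrophages (0.98 ± 0.18, adjusted p = 0.0459, edgeR). Ecm1, a secreted matrix protein, rose to 153 and 190 CPM in LNP-Sirpa, against 80.9 and 96.8 CPM in CTRL macrophages (0.95 ± 0.19, adjusted p = 0.0497, edgeR). The remaining genes of the hypoxia list did not pass. In the other 5 gates these 7 lists gave 1 call in all, Il1b, the inflammatory cytokine interleukin-1 beta, in regulatory T cells. It had 271 and 292 CPM in LNP-Sirpa and 57.2 and 72.2 CPM in CTRL regulatory T cells (log2 ratio 2.10 ± 0.30, adjusted p = 0.000186, edgeR). Macrophages had 1265 and 1951 CPM of Il1b in LNP-Sirpa and 682 and 1205 CPM in CTRL libraries, and the C1q genes stood in regulatory T cells at 11.1% and 14.4% of their macrophage level in LNP-Sirpa and 14.3% and 11.3% in CTRL libraries. The part of macrophage RNA in that call was not tested.

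**Figure D5:**
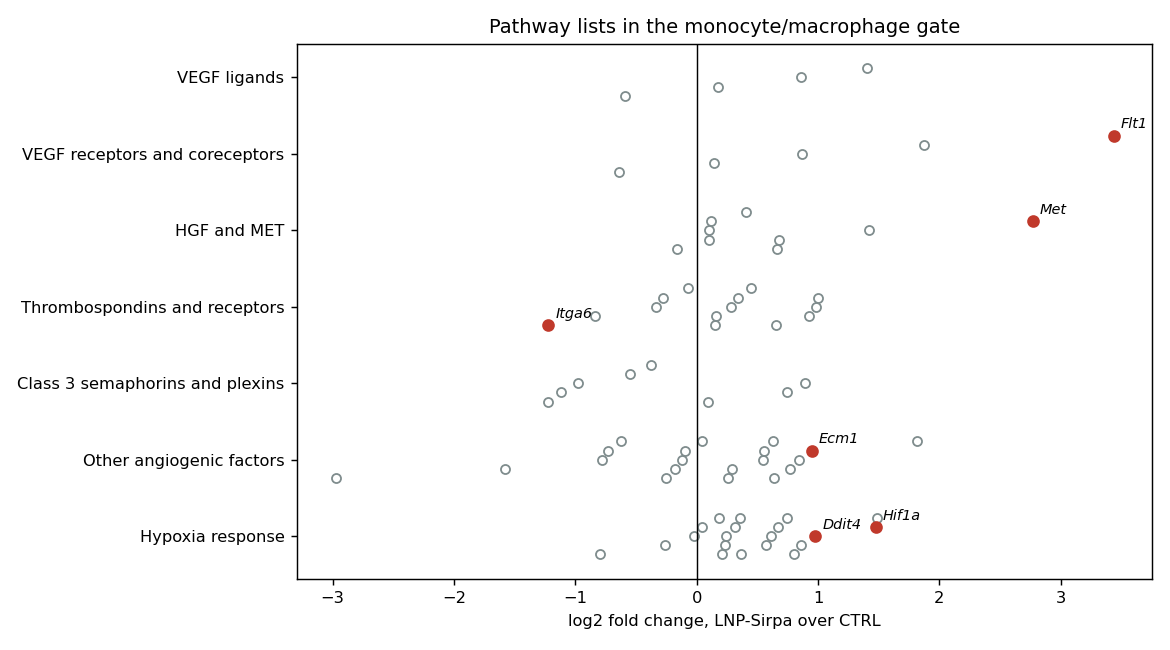
Log2 ratio of LNP-Sirpa over CTRL in the monocyte/macrophage gate for each tested gene of the 7 lists, 1 row per list, with filled red points for genes past the threshold. Flt1 (3.44) and Met (2.77) stand to the right of all others, Itga6 (−1.23) is the filled point on the left, and most points lie unfilled on both sides of 0.

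The genes whose levels followed each member most closely were found over 28 library-by-gate points (7 gates in 4 libraries) among 7941 genes. These points share libraries and gates, so Pearson's r is a description only. Thbs1 was followed by Msrb1, Fpr2 and Tpd52 (r = 0.93, 0.92 and 0.91), and Nrp2 by Cd63, Ccnd1 and Sh3glb1 (0.93, 0.92 and 0.92). Vegfa was followed by Ifitm2, Tgm2 and Gab1 (0.82, 0.81 and 0.80), and Met by Rnf217, Gbp2 and Stx12 (0.82, 0.76 and 0.75). Nrp1 was followed by Hpgds, Ap1s2 and Clec4a3 (0.80, 0.79 and 0.78). Flt1 had the lowest r, with Ms4a8a, Cfb and Fam102b (0.75, 0.73 and 0.72).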

How the data were processed

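Droplet single-cell libraries of polyA RNA (DNBelab C Series, DNBSEQ-T7) of CD45+ cells from MC38 tumours were analysed, 2 LNP-Sirpa and 2 CTRL; 4 further libraries of oligo reads were not used here. The deposited matrices hold whole UMI counts per gene and cell, made with PISA 1.0 per the file headers, and with STAR 2.5.1b on GRCm39 per the submitters' processing notes. How cells were called, and with which annotation, is not given in the sources used here. The smallest barcode holds 1000 UMIs.

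Cells with at least 500 UMIs, at least 300 genes and at most 15% mitochondrial UMIs were kept, which removed 16 and 3 LNP-Sirpa and 7 and 14 CTRL barcodes. Cell types were gated on marker UMIs per 10000 (for macrophages at least 10, over at least 3 of 7 markers) with low UMIs of the other types. States were cut at the 85th percentile of each marker sum in the macrophage gate, and a cell above several took the one it exceeded by the largest ratio. The marker names are labels of these gates, rebuilt here without an annotation of the authors. Scrublet in scanpy 1.11.5 marked 1 and 0 LNP-Sirpa and 0 and 0 CTRL cells and was taken not to have worked, so doublets were treated by an alternative that leaves out the top 5% of scores.

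Counts summed per library and gate (at least 20 cells in every library) were tested in R 4.3.3 with edgeR 4.0.16 (TMM, filterByExpr, robust quasi-likelihood) and Benjamini-Hochberg adjustment over all genes. CPM (counts-per-million) are relative to the TMM-scaled library, raw CPM to the plain sum of UMIs. The replicate number was no block, since the labels do not say that replicates 1 and 2 are shared between the groups. The deviations of same-numbered libraries correlated at 0.02 in the macrophage gate, which with 2 replicate numbers cannot settle whether libraries are paired. Alternatives were DESeq2 1.42.0, its size factors, no filter on low counts, the replicate block, each library left out, stricter gates, thinning to 2000 UMIs and doublet removal. Scripts were tested on simulated data. Treatment within states and by state was added after the data were seen. The genes, lists and markers were chosen with earlier results of these data known. The text names the 6 genes in every gate, list genes past the threshold and the ligands and receptors that bind a member, and the 3 genes most like each member. Intervals (95%) cover counting error only. Free RNA in droplets adds UMIs to cells that do not make a transcript, so low levels outside a gate's own genes are uncertain.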

Additional observations from a re-analysis of the deposited data

Results flagged for a closer look

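The treatment difference of Flt1 was smaller in interferon-high cells than in cells with no state, on few CTRL molecules. The log2 ratio of LNP-Sirpa over CTRL in interferon-high cells minus that in cells with no state was −2.65 ± 0.53 (SE; adjusted p = 0.00485 by edgeR's interaction test over 11102 genes). In interferon-high cells Flt1 had 25.6 and 26.4 CPM in LNP-Sirpa and 20.8 and 18.2 CPM in CTRL libraries, whereas cells with no state had 22.8 and 32.4 CPM in LNP-Sirpa and 2.25 and 3.33 CPM in CTRL libraries. The CTRL interferon-high cells numbered 36 and 96, and their Flt1 came from 8 and 16 UMIs in a few cells of each library. Kdr stood at 15.7 and 4.64 CPM in these CTRL cells, and the part of endothelial RNA in their Flt1 was not tested. The difference was −2.88 without LNP-Sirpa replicate 1 (adjusted p = 0.000281) and −2.46 without LNP-Sirpa replicate 2 (adjusted p = 0.00127), and no longer passed at −2.46 without CTRL replicate 1 (adjusted p = 0.369) and −3.20 without CTRL replicate 2 (adjusted p = 0.234).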

How the results depend on the processing

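In the monocyte/macrophage gate Flt1 and Met kept their direction in every alternative run and missed the threshold only over all kept cells of a library (log2 ratios 2.54 and 2.31, adjusted p = 0.0923 and 0.0828, edgeR). Vegfa, at 1.40, passed with DESeq2 (1.42), no filter on low counts (1.38), the replicate block (1.41) and cells thinned to 2000 UMIs (1.498), and ran from 1.05 to 1.81 with each library left out. Thbs1 passed with DESeq2 (1.01) and no filter (0.97). Nrp1 passed with no filter (−0.66) and ran from −0.90 to −0.42 with each library left out. Nrp2 passed in none.

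Counts of genes past the threshold moved more. In the macrophage gate 492 passed, against 1443 with DESeq2, 2403 with no filter, 2 over all kept cells, 125 in cells with no state, and 85 to 875 with each library left out (85 and 145 without CTRL replicate 1 and 2, 824 and 875 without LNP-Sirpa replicate 1 and 2). In neutrophils 4 passed, against 13 with DESeq2 size factors, 30 with DESeq2, 93 with no filter, 7 with the replicate block, and 6 to 84 with each library left out. In dendritic cells 54 passed, against 29 with DESeq2, 144 with no filter, 11 thinned, 271 with the numbers crossed in the block, and 43 to 320. In CD8 T cells 13 passed, against 20 with DESeq2, 197 with no filter, 56 with the replicate block, 20 under the stricter gate, 5 thinned, 6 without the highest Scrublet scores, and 30 to 139. In regulatory T cells 25 passed, against 8 with DESeq2, 99 with no filter, 2 under the stricter gate, 1 thinned, and 40 to 104. In NK cells 63 passed, against 19 with DESeq2, 198 with no filter, 139 with the replicate block, 31 thinned, and 66 to 318. The cause of these moves was not tested. Same-numbered libraries deviated together little or not at all (correlations of −0.11 to 0.04), the dendritic gate being the one below −0.1. With 2 replicate numbers this cannot settle whether libraries are paired. The labels do not give a pairing, so the block is given only here.

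Directions turned in 5 comparisons that passed in some setting. Nrp2 in dendritic over macrophage cells, at −0.09, was 0.50 under the stricter gate and 0.16 thinned, and ran from −0.28 to 0.074 with each library left out. Fibroblast-like over macrophage cells ran from −1.54 to 0.35 for Flt1 and from −1.35 to 0.10 for Met. Inflammatory cells ran from −0.21 to 1.59 for the Thbs1 treatment ratio and from −0.10 to 0.90 for the Nrp1 difference from cells with no state. A further 138 comparisons of a member passed in no setting, and 70 of these changed sign in at least 1. Leaving out LNP-Sirpa replicate 1 made Vegfa and Met pass in dendritic cells (2.99 and 3.06, with adjusted p of 0.0225 and 0.0477 by edgeR) and leaves the 25 cells of LNP-Sirpa replicate 2, a lone sample assumed to vary like the other group. The stricter gate and thinning left fewer than 20 neutrophils in a library and were not run. Depth limits Flt1 and Met in the small gates, where most libraries held under 20 UMIs.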
